A study of Mus musculus with 8 samples.

Results

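This account follows 42 genes of the lysosome, the acidic compartment in which a macrophage breaks down what it takes up, in lung macrophages of newborn mice with and without deletion of Pparg. The genes were taken by name: every probe set whose platform annotation gives 1 of the 42 symbols was a candidate, and a gene with several was represented by its brightest probe set, by the mean of all 8 arrays. All 42 symbols were found among the 18782 genes measured. They fall into 14 hydrolases of glycans, 8 enzymes and activator proteins of lipid breakdown, 8 membrane proteins, regulators and a peptidase, and 12 subunits and accessory proteins of the proton pump.

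Control mice were PPARg fl/fl on a C57BL/6 background. They had sequence of Pparg flanked by recombination sites and no recombinase, so the product of the gene was left intact. Knockout mice were CD11cCre/PPARg fl/fl on the same background. Their recombinase is driven by the CD11c promoter, so deletion is limited to cells that have expressed CD11c and depends on when they began to. The groups were control day 2, knockout day 2, control day 11 and knockout day 11 after birth, with 2 arrays in each, and the sorted cells behind every array came from the pooled lungs of 2 mice. Day 2 cells came from gates for precursors of alveolar macrophages (pre-AM), positive for CD45 and F4/80 and high in CD11c. One gate took cells intermediate in both Siglec-F and CD11b, the other cells with little Siglec-F and much CD11b, and the labels do not say which served which genotype. Day 11 cells came from gates for alveolar macrophages, positive for Siglec-F, which took CD11b-low cells from control lungs and CD11b-high cells from knockout lungs. The labels call the latter arrested and immature. Genotype and gate cannot be told apart in these data, nor can age and gate, since the gates differed between the ages. In sorted pools, a change in the mix of cells and a change of RNA per cell cannot be told apart either.

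Lysosomal hydrolases work at low pH. The vacuolar proton pump (V-ATPase) supplies it: its V1 sector splits ATP in the cytosol and its V0 sector carries protons across the membrane. Glycosidases and sulfatases take sugar chains apart stepwise, while lipid enzymes act on sphingolipids and phospholipids with the help of small activator proteins such as saposins. TFEB and TFE3 are related transcription factors that raise lysosomal genes through an E-box element in their promoters when they move to the nucleus. Alveolar macrophages use this machinery on surfactant, a mixture rich in phospholipid.

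Values are RMA signals on the log2 scale, where a difference of 1 is a doubling. The median over all probe sets was 5.35 on every array, and no member fell below 7.975 on any array, so every member had signal well above that median. Some members lay near the top of the range, such as Psap, with a mean above that of 99.9% of genes. Whether differences were compressed there was not tested. Levels of different genes were not compared, since their probes differ. A gene is said to be called where limma's adjusted p, after Benjamini-Hochberg adjustment over all 18782 genes, was under 0.05. Errors are standard errors (SE) of a log2 difference with n = 2 arrays per group, and the p-values measure only the spread between these pools. Arrays of a group correlated across probe sets with r from 0.995 to 0.9983 and arrays of different groups with r from 0.9752 to 0.9945.

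Pparg, the targeted gene, had signals of 10.89 and 11.01 in day 2 controls, 10.55 and 10.74 in day 2 knockouts, 11.18 and 11.13 in day 11 controls and 11.32 and 11.36 in day 11 knockouts. Its signal was thus not lost in the knockouts, and the position of its probes relative to the deleted part was not known here. Pparg was called lower in day 2 knockouts (-0.305 ± 0.08, adjusted p = 0.0346) and was not called at day 11 (0.185 ± 0.08, adjusted p = 0.183). Cidec, a lipid droplet gene known as a PPARγ target, had less signal in every knockout array than in every control array of its age, by 16.3-fold (day 2) and 16.2-fold (day 11).

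Markers of other cells moved with genotype, by the medians of their lists mainly at day 2. The median signal over 13 alveolar macrophage markers was 10.07 and 10.15 in day 2 controls and 7.13 and 7.48 in day 2 knockouts. Over 10 monocyte markers it was 6.13 and 6.18 against 9.06 and 7.51, over 13 markers of interstitial and other tissue macrophages 5.24 and 5.25 against 8.26 and 7.23, over 12 dendritic cell markers 5.10 and 4.94 against 6.71 and 6.40, and over 12 neutrophil markers 4.97 and 4.92 against 6.19 and 6.2. At day 11 the alveolar macrophage markers had medians of 11.01 and 10.96 in controls and 10.13 and 10.04 in knockouts, and the interstitial macrophage markers 4.97 and 5.07 against 5.60 and 5.96. Monocyte, dendritic cell and neutrophil medians at day 11 lay between 4.90 and 5.63 in both genotypes. Single markers of these lists still differed at day 11, in both directions. Ccr2 was 6.229 and 6.077 in controls and 8.28 and 8.535 in knockouts. Clec9a was 6.138 and 5.824 against 8.778 and 9.28, and Mmp8 8.063 and 7.639 against 11.07 and 11.09. Ccl17 was lower in knockouts, with 10.41 and 10.98 in controls against 8.09 and 8.918. Medians of eosinophil, fibroblast, B cell and T and NK cell markers lay between 3.83 and 5.33 on all 8 arrays, those of erythroid markers between 4.84 and 5.27, of endothelial markers between 5.47 and 6.61 and of alveolar epithelial markers between 6.11 and 7.28. The alveolar macrophage list includes Pparg itself and its target Cidec, so the medians of that list are not independent of the deletion. The part of the marker differences in the results below was not tested.

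The lysosomal genes differed between genotypes at day 2 about as often as other genes. At day 11, in the fit over all 8 arrays, a larger share of them than of all genes was called higher. That excess was small without control day 11 replicate 1, and it was not seen without knockout day 11 replicate 1, where the shares were about equal. Of the 42 members, 4 were called higher in knockouts at day 2, against 8.86% of all genes tested, and 5 lower, against 11.2%. Together these were 21.4% of the members, beside 20.1% of all genes. At day 11, 11 were called higher (26.2%, against 9.34%) and 2 lower (4.76%, against 9.29%), together 31.0% of the members beside 18.6% of all genes. The median log2 difference over the members was -0.07 at day 2 and 0.11 at day 11, beside -0.03 and 0.00 over all genes. Brighter genes were called more often in general. With genes left out whose mean was below the median gene in all 4 groups, all 42 members stayed in and 13 were called higher at day 11, beside 18.2% of the 9889 genes kept. Most differences were small. The signal of 29 members ranged over less than 0.5 log2 units across the 8 arrays, and that of 2 members, Cd63 and Pla2g15, over more than 1.

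These counts rested on few arrays. At day 2 the 4 higher calls became 1 without control replicate 1, control replicate 2 or knockout replicate 2, and the 5 lower calls became 1 without control replicate 1 and 3 without control replicate 2 or knockout replicate 1. At day 11 the 11 higher calls became 3 without control replicate 1 or knockout replicate 1, 6 without knockout replicate 2, and 7 without control replicate 2 or either day 2 control, while the share of all genes called higher was between 5.39% and 8.22% in these fits. The 2 lower calls at day 11 became 0 without either day 11 control or knockout replicate 2, and 1 without either day 2 control.

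**Figure D1:**
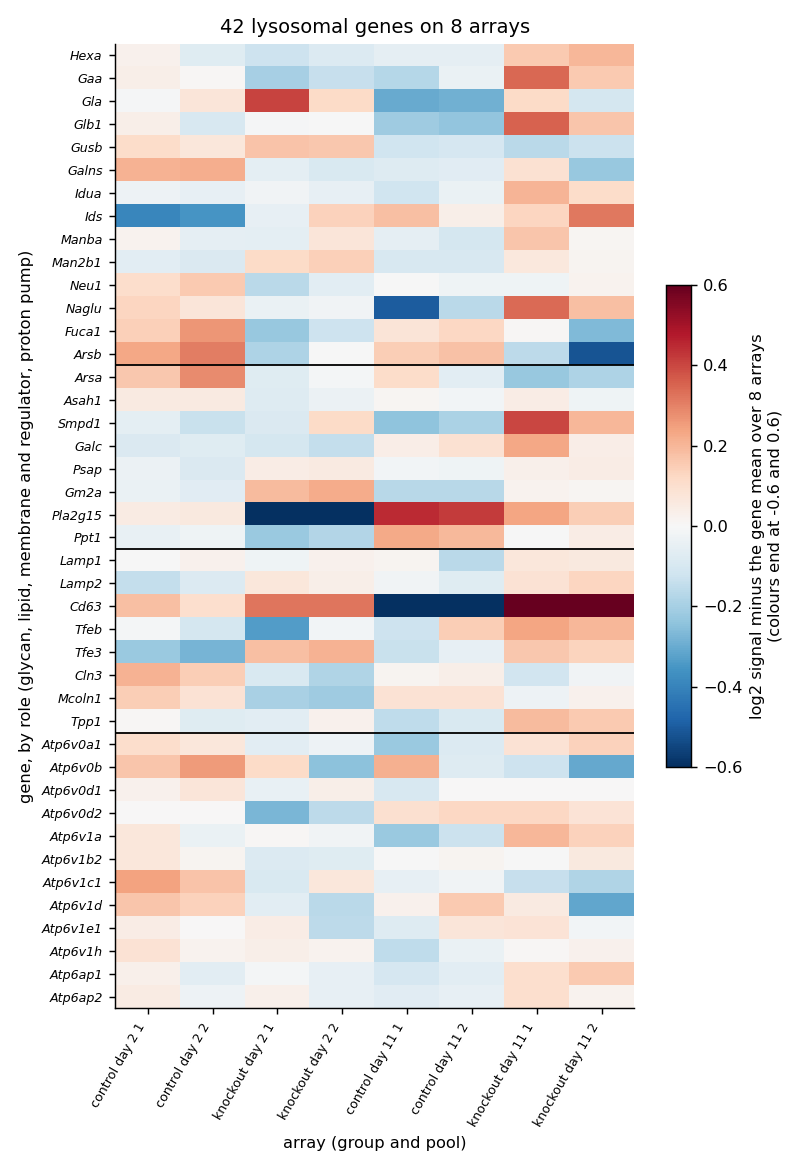
Each row is 1 of the 42 lysosomal genes, ordered by role, and each column 1 of the 8 arrays; colour gives the log2 signal minus the gene's mean over the 8 arrays and is cut at -0.6 and 0.6. Most rows stay pale, while Cd63 is low in both day 11 controls and Pla2g15 is low in both day 2 knockouts.

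Among membrane proteins, Cd63 stood apart. CD63 is a tetraspanin of late endosomes, lysosomes and secretory vesicles. Its signal was 10.77 and 10.69 in day 2 controls, 10.91 and 10.91 in day 2 knockouts, 9.394 and 9.476 in day 11 controls and 11.27 and 11.30 in day 11 knockouts. The day 11 controls lay below all 6 other arrays and the day 11 knockouts above all of them. Between day 2 and day 11 Cd63 fell 2.45-fold in controls (log2 difference -1.29 ± 0.06, adjusted p = 0.000158) and rose in knockouts (0.38 ± 0.06, adjusted p = 0.00738). Knockouts were thus 3.61-fold higher than controls at day 11 (1.85 ± 0.06, adjusted p = 4.53e-06). At day 2 the difference was 0.18 ± 0.06 with no call (adjusted p = 0.0916), except under the trend and robust prior. The change of the genotype difference with age was itself called (1.67 ± 0.09, adjusted p = 0.000198). The 4 Cd63 calls held in every alternative tried.

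The major membrane glycoproteins of the lysosome, LAMP1 and LAMP2, coat the inner face of its membrane. Lamp1 was 11.60 and 11.63 in day 2 controls, 11.58 and 11.63 in day 2 knockouts, 11.62 and 11.44 in day 11 controls and 11.67 and 11.66 in day 11 knockouts. Its genotype difference was -0.01 at day 2 (95% interval -0.18 to 0.16) and 0.13 at day 11 (-0.04 to 0.31), and the groups overlapped at day 2. Lamp2 was 11.13 and 11.19, 11.34 and 11.31, 11.25 and 11.20, and 11.36 and 11.40 in the same order of groups. Both knockout groups lay above both control groups, by 0.17 ± 0.06 at day 2 and 0.16 ± 0.06 at day 11, without a call (adjusted p = 0.104 and 0.134). The day 2 difference in Lamp2 was called (adjusted p = 0.0389) when limma's prior was fitted with a trend and robustly.

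Mcoln1 and Cln3 were lower in knockouts at day 2. Mcoln1 encodes TRPML1, the calcium channel of the lysosomal membrane, and Cln3 a lysosomal membrane protein lost in a childhood neurodegenerative disease. Mcoln1 signals were 10.57 and 10.51 in day 2 controls against 10.23 and 10.21 in knockouts, and 10.51 and 10.51 against 10.39 and 10.45 at day 11. Cln3 signals were 10.88 and 10.82 against 10.58 and 10.49 at day 2, and 10.69 and 10.71 against 10.56 and 10.65 at day 11. Neither gene's groups overlapped at day 2. Mcoln1 fell by 0.32 ± 0.06 (adjusted p = 0.00767) and Cln3 by 0.32 ± 0.07 (adjusted p = 0.013). The Mcoln1 call was lost without control day 2 replicate 1 (adjusted p = 0.0557), and the Cln3 call without that array (0.0817) or knockout day 2 replicate 2 (0.065). At day 11 neither was called, with differences of -0.09 and -0.095. Tpp1, a peptidase that removes tripeptides from protein ends, was called higher in knockouts at day 11 (0.29 ± 0.07, adjusted p = 0.0174). That call was lost without any 1 of the 4 day 11 arrays, with adjusted p from 0.0546 (control replicate 2) to 0.109 (control replicate 1).

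Of the regulators, Tfe3 was called between genotypes and Tfeb was not, and whether the 2 differ from each other was not tested. Tfe3 was higher in knockouts at both ages, with signals of 9.062 and 9.007 in day 2 controls against 9.463 and 9.493 in knockouts, and 9.151 and 9.237 in day 11 controls against 9.445 and 9.419 in knockouts. All 4 knockout arrays lay above all 4 control arrays. The difference was 0.44 ± 0.06 at day 2 (adjusted p = 0.00185), which held in every alternative tried, and 0.24 ± 0.06 at day 11 (adjusted p = 0.0342). The day 11 call was lost with a replicate block (0.0526), without either day 2 control (0.0546 each), without any 1 day 11 array (0.0641 to 0.19) and with only the day 11 arrays (0.0697). Tfeb, its relative, was 8.582 and 8.488 in day 2 controls, 8.259 and 8.578 in day 2 knockouts, 8.470 and 8.742 in day 11 controls and 8.831 and 8.794 in day 11 knockouts. Groups overlapped at day 2 and did not at day 11, and neither difference was called (-0.12, 95% interval -0.40 to 0.17, and 0.21, -0.08 to 0.49). In knockouts Tfeb was 0.39 ± 0.12 higher at day 11 than at day 2 (adjusted p = 0.0712). That difference was called without knockout day 2 replicate 2 (0.55, adjusted p = 0.0209) and under the trend and robust prior (0.0485).

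**Figure D2:**
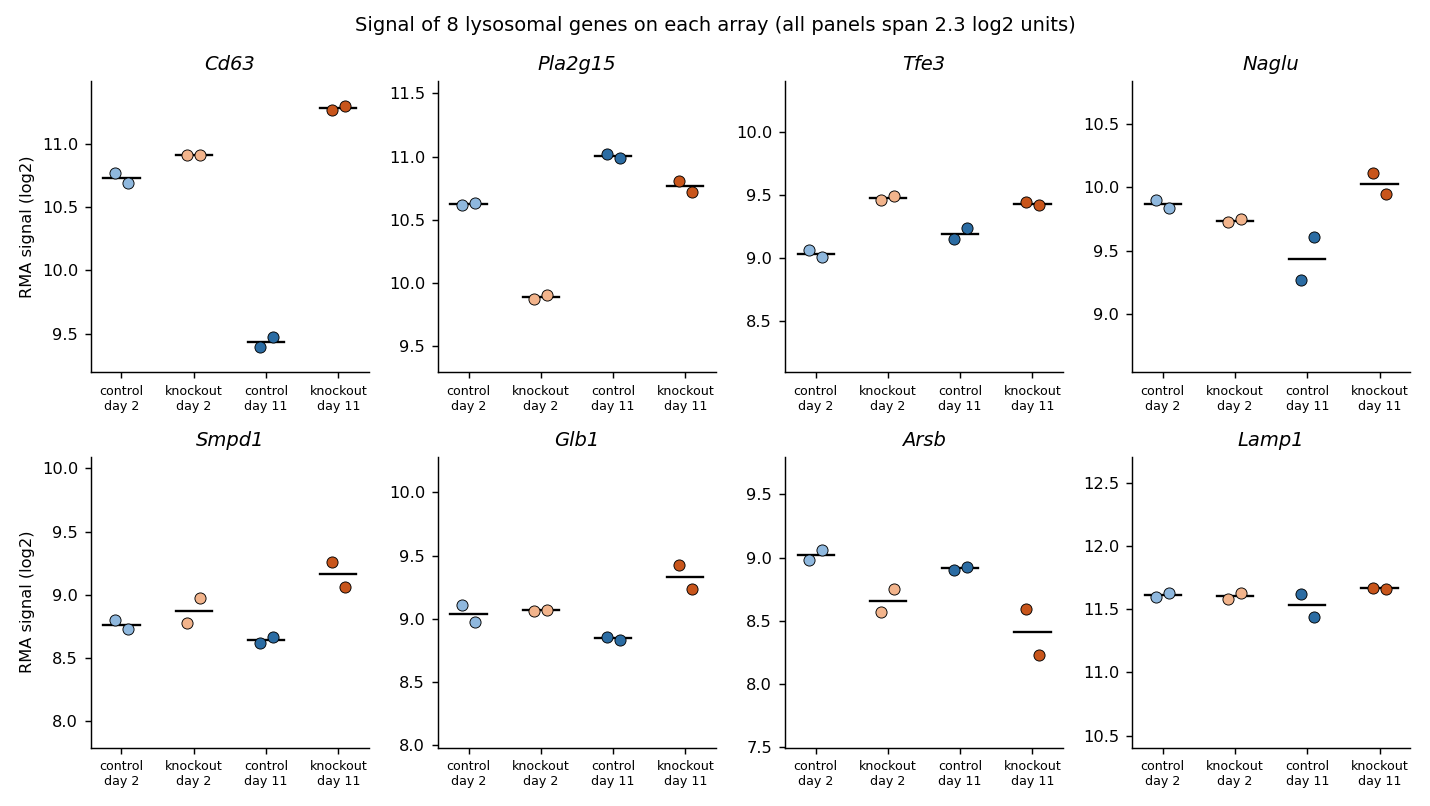
RMA signal on the log2 scale of 8 lysosomal genes on each array, in 4 groups of 2; points are arrays, bars are group means, and each panel spans 2.3 log2 units. Cd63 separates the day 11 groups by 1.85 log2 units, Pla2g15 is lowest in day 2 knockouts, and Lamp1 stays within 0.23 log2 units on all arrays.

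The element that TFEB and TFE3 bind was looked for in the members' promoters. RefSeq promoter windows of GRCm38.p6, which run from 250 bases before to 50 bases after an annotated start, were at hand for 36 of the 42 members. The E-box core CACGTG, which reads the same on both strands, was present in a window of 11 of these 36 members (30.6%), against 9.57% of 14724 measured genes with a window, 7.15% of all 32851 windows and 13 of 65 other lysosomal genes with a window (20%). The longer palindrome TCACGTGA, which contains the core, was present in 5 members (13.9%), against 1.52% of measured genes with a window, 0.974% of all windows and 6 of 65 other lysosomal genes (9.23%). The direct repeat bound by PPAR with RXR, AGGTCA followed by any 1 base and AGGTCA again, was found on neither strand in any member's window and in 0.0396% of all windows. A match is a string of letters and no measured binding.

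Shown here are 100 bases, all before the annotated start, for the members with a core match that were called in a genotype comparison, for Lamp1, which had the most matches, and for the 2 most variable members, which had none. They are written 5′ to 3′ on the gene's own strand, with the core in capitals, from RefSeq on GRCm38.p6. The first, chr8:13159061-13159160 on the plus strand, belongs to Lamp1 and holds 4 cores within 61 bases of the start.
Lamp1: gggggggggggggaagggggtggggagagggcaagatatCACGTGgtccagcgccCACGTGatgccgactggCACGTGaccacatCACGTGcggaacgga
Mcoln1 (chr8:3500419-3500518, plus) and Cln3 (chr7:126583319-126583418, minus), both lower in day 2 knockouts, hold 2 cores each.
Mcoln1: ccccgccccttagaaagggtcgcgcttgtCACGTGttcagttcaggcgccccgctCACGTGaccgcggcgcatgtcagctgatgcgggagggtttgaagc
Cln3: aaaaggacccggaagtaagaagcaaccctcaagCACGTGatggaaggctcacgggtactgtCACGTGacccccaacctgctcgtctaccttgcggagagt
Glb1 (chr9:114400978-114401077, plus), Naglu (chr11:101069994-101070093, plus), Gaa (chr11:119267776-119267875, plus) and Atp6v1a (chr16:44139338-44139437, minus), all higher in day 11 knockouts, hold 1 core each.
Glb1: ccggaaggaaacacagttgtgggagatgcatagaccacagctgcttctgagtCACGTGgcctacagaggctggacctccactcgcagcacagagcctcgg
Naglu: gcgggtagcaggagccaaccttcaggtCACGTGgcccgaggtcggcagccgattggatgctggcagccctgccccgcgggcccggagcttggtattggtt
Gaa: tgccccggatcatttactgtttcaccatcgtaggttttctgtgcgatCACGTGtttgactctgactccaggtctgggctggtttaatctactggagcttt
Atp6v1a: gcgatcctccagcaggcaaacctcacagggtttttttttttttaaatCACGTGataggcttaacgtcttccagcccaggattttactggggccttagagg
Cd63 (chr10:128909245-128909344, plus) and Pla2g15 (chr8:106150254-106150353, plus), the members that varied most, show no core in these bases or elsewhere in their windows. The Cd63 window lies inside the annotated gene, which begins at chr10:128896231, and the bases before that position were not searched. The Cln3 window shown and the Atp6v1a window also lie inside their genes, which on the minus strand begin at chr7:126585817 and chr16:44139702. For Atp6v1a the bases before the gene were not searched either. Cln3 had 2 windows, and both of its core matches were in that shown.
Cd63: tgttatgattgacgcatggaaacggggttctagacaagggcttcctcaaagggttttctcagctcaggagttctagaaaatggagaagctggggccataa
Pla2g15: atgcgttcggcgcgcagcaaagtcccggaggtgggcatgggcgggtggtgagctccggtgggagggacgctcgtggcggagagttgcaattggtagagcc

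Calls occurred among members with and without the core. At day 11, 4 of the 11 members with a core were called higher in knockouts and none lower. Of the 25 members whose windows lacked it, 7 were called higher and 2 lower, beside 9.34% and 9.29% of all genes. The median difference was 0.14 in both sets (0.135 each before rounding). At day 2, 2 members with a core were called lower and none higher, against 3 lower and 4 higher among those without. Of all genes, 11.2% were called lower and 8.86% higher at day 2.

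**Figure D3:**
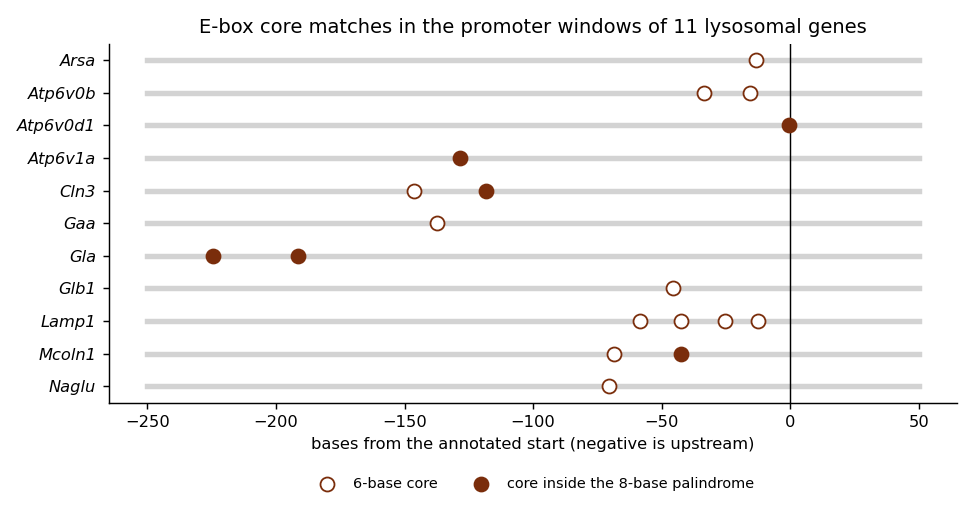
Positions of the E-box core in the promoter windows of the 11 lysosomal genes that hold it, in bases from the annotated start; grey bars are the windows, open circles the 6-base core, and filled circles a core inside the 8-base palindrome. Lamp1 holds 4 cores within 61 bases of its start, and the palindrome is present in Atp6v0d1, Atp6v1a, Cln3, Gla and Mcoln1.

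Of the 14 glycan hydrolases, 10 were not called at day 2 and 8 not at day 11. In day 2 knockouts 2 were called higher and 2 lower, beside 8.86% and 11.2% of all genes (median difference -0.04, beside -0.03). At day 11, 5 were called higher and 1 lower, beside 9.34% and 9.29% of all genes (median 0.15, beside 0.00).

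Naglu, Glb1 and Gaa were the glycosidases with the largest day 11 differences. Naglu, which removes N-acetylglucosamine from heparan sulfate, was 9.269 and 9.604 in day 11 controls and 10.11 and 9.949 in knockouts, after 9.899 and 9.839 in day 2 controls and 9.727 and 9.746 in day 2 knockouts. Glb1, lysosomal β-galactosidase, was 8.861 and 8.836 in day 11 controls and 9.428 and 9.239 in knockouts, after 9.107 and 8.975 and then 9.064 and 9.070 at day 2. Gaa, the acid α-glucosidase that degrades glycogen, was 9.390 and 9.524 in day 11 controls and 9.908 and 9.719 in knockouts, after 9.598 and 9.571 and then 9.363 and 9.424 at day 2. In each of the 3 genes both day 11 knockouts lay above both controls, and the day 2 groups differed by less or the other way. Naglu rose by 0.59 ± 0.11 (adjusted p = 0.0077), a call lost without knockout day 11 replicate 1 (0.0509). Glb1 rose by 0.48 ± 0.08 (adjusted p = 0.00458), a call held in every alternative tried. Gaa rose by 0.36 ± 0.08 (adjusted p = 0.0204), lost without control replicate 1 (0.136) or knockout replicate 1 (0.112) of day 11. The change of the genotype difference with age was 0.73 for Naglu, 0.46 for Glb1 and 0.55 for Gaa, with no call (adjusted p = 0.0531, 0.087 and 0.0519). Those of Naglu and Gaa were called with dim genes left out and under the trend and robust prior.

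Hexa and Idua were called higher at day 11 with smaller differences. Hexa, a subunit of β-hexosaminidase, was 11.48 and 11.48 in controls and 11.69 and 11.73 in knockouts (0.23 ± 0.06, adjusted p = 0.0405). Idua, which starts the breakdown of dermatan and heparan sulfate, was 8.810 and 8.887 in controls and 9.131 and 9.037 in knockouts (0.24 ± 0.06, adjusted p = 0.0404). The knockouts lay above the controls in both genes. Both calls were lost without any 1 of the 4 day 11 arrays (adjusted p from 0.101 to 0.168 for Hexa and from 0.0638 to 0.21 for Idua), without either day 2 control (0.0512 and 0.0681), with the replicate block (0.0613 and 0.0593) and with only the day 11 arrays (0.0646 and 0.0845). That of Idua was also lost without either day 2 knockout (0.0506) and with arrays centred on the brighter genes (0.0505).

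Arsb was the glycan gene that fell at day 11. It encodes arylsulfatase B, which removes sulfate from dermatan and chondroitin sulfate. Signals were 8.984 and 9.061 in day 2 controls, 8.566 and 8.752 in day 2 knockouts, 8.901 and 8.927 in day 11 controls and 8.597 and 8.233 in day 11 knockouts. All 4 knockout arrays lay below all 4 controls. It fell by 0.50 ± 0.12 at day 11 (adjusted p = 0.0232), and the day 2 difference of -0.36 was not called (adjusted p = 0.0731), though it was without either day 11 knockout and under the trend and robust prior. The day 11 call was lost without control replicate 1 (0.101), control replicate 2 (0.109) or knockout replicate 2 (0.0935). Arsb is the member with a second probe set, which read 8.151 and 8.322 in day 2 controls, 7.889 and 8.001 in day 2 knockouts, 8.276 and 8.226 in day 11 controls and 7.883 and 7.700 in day 11 knockouts. There too all 4 knockouts lay below all 4 controls.

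At day 2 Ids and Man2b1 were called higher and Fuca1 and Neu1 lower. Ids, a sulfatase of heparan and dermatan sulfate, was 8.638 and 8.674 in controls and 8.980 and 9.169 in knockouts (0.42 ± 0.10, adjusted p = 0.018). At day 11 it was 9.207 and 9.062 in controls and 9.156 and 9.344 in knockouts, which overlap. The day 2 call was lost without control replicate 1 (0.0958), control replicate 2 (0.0804) or knockout replicate 2 (0.085). Man2b1, lysosomal α-mannosidase, was 11.33 and 11.31 against 11.51 and 11.54 (0.20 ± 0.06, adjusted p = 0.0435), a call lost in 10 of 14 alternatives, among them the replicate block (0.0646) and the omission of any 1 array (0.0594 to 0.17). Fuca1, which removes fucose, was 10.35 and 10.47 in controls and 9.978 and 10.08 in knockouts, a fall of 0.38 ± 0.10 (adjusted p = 0.0293). Neu1, the sialidase, was 9.353 and 9.403 against 9.082 and 9.181, a fall of 0.25 ± 0.06 (adjusted p = 0.0313). None of these 4 genes had overlapping groups at day 2. The calls of Fuca1 and Neu1 were lost without either day 2 control (0.0669 and 0.167 for Fuca1, 0.0856 and 0.156 for Neu1), without knockout day 2 replicate 1 (0.122 and 0.146) and without either day 11 control (0.0519 and 0.0535). That of Neu1 was also lost with only the day 2 arrays (0.0826). At day 11 Fuca1 was called lower only without knockout day 11 replicate 1.

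The remaining glycan hydrolases, Gla, Gusb, Galns and Manba, showed no call between genotypes in the fit over all 8 arrays. Gla, α-galactosidase A, differed by 0.22 at day 2 (95% interval -0.03 to 0.48) and 0.30 at day 11 (0.04 to 0.55, adjusted p = 0.11). Galns, a sulfatase of keratan sulfate, differed by -0.28 at day 2 (-0.51 to -0.06, adjusted p = 0.0849) and 0.00 at day 11 (-0.22 to 0.23). Galns was called lower at day 2 without either day 11 knockout and with only the day 2 arrays, and Gla was called higher at day 11 without either day 2 knockout.

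Lipid enzymes and activators were led by Pla2g15, lysosomal phospholipase A2, which degrades phospholipids, including those of surfactant. Its signal was 10.62 and 10.63 in day 2 controls, 9.874 and 9.905 in day 2 knockouts, 11.02 and 10.99 in day 11 controls and 10.81 and 10.72 in day 11 knockouts. The 4 groups did not overlap, and the day 2 knockouts were lowest. It was 1.66-fold lower in knockouts at day 2 (a fall of 0.74 ± 0.06 on the log2 scale, adjusted p = 0.000149) and fell by 0.24 ± 0.06 at day 11 (adjusted p = 0.0309). It rose with age in controls (0.38 ± 0.06, adjusted p = 0.0146) and in knockouts (0.88 ± 0.06, adjusted p = 0.000158). The genotype difference narrowed with age by 0.50 ± 0.09 (adjusted p = 0.0263). The day 2 call and the rise in knockouts held in every alternative tried. The day 11 call was lost without any 1 of the 4 day 11 arrays (0.0501 to 0.162), without either day 2 control (0.0548) and with only the day 11 arrays (0.0696). The rise in controls was lost without any 1 control array (0.075 to 0.107). The change of the difference with age was lost without any 1 control array (0.0891 to 0.107), knockout day 2 replicate 1 (0.0661) or knockout day 11 replicate 1 (0.0761).

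Smpd1 and Gm2a were called higher in knockouts, each at 1 age. Smpd1, acid sphingomyelinase, was 8.622 and 8.671 in day 11 controls and 9.263 and 9.062 in day 11 knockouts, after 8.804 and 8.728 and then 8.775 and 8.979 at day 2. The groups overlapped at day 2 and not at day 11, where it rose by 0.52 ± 0.09 (adjusted p = 0.00703). That call was lost (0.0552) when control replicate 1 of day 11 was left out. Gm2a, which presents GM2 ganglioside to β-hexosaminidase, was 11.62 and 11.59 in day 2 controls and 11.85 and 11.88 in knockouts (0.26 ± 0.06, adjusted p = 0.0153), and 11.49 and 11.49 against 11.68 and 11.67 at day 11, with no call there in the main comparison. Knockouts lay above controls at both ages. The Gm2a call at day 2 was lost without control replicate 1 (0.0596), control replicate 2 (0.0897) or knockout replicate 2 (0.0657) and with only the day 2 arrays (0.0534), while day 11 gained a call with dim genes left out and with a trend and robust prior.

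Arsa, Asah1, Galc, Psap and Ppt1 showed no call between genotypes in the fit over all 8 arrays. Arsa, arylsulfatase A, differed by -0.26 ± 0.08 at day 2 (adjusted p = 0.0545) and was called lower there without either day 11 control and with dim genes left out. Psap, the precursor of the saposins, differed by 0.11 at day 2 (95% interval -0.02 to 0.24) and 0.06 at day 11 (-0.07 to 0.19). Asah1, acid ceramidase, differed by -0.11 (-0.25 to 0.03) and 0.01 (-0.13 to 0.15). Ppt1, which removes palmitate from proteins, was 11.23 and 11.25 in day 2 controls and 11.05 and 11.10 in knockouts, and 11.50 and 11.47 against 11.27 and 11.32 at day 11. The knockouts lay below the controls of their age, by -0.16 and -0.19 without a call (adjusted p = 0.0981 and 0.0662). Ppt1 was called lower at both ages under the trend and robust prior, and at day 11 with dim genes left out.

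**Figure D4:**
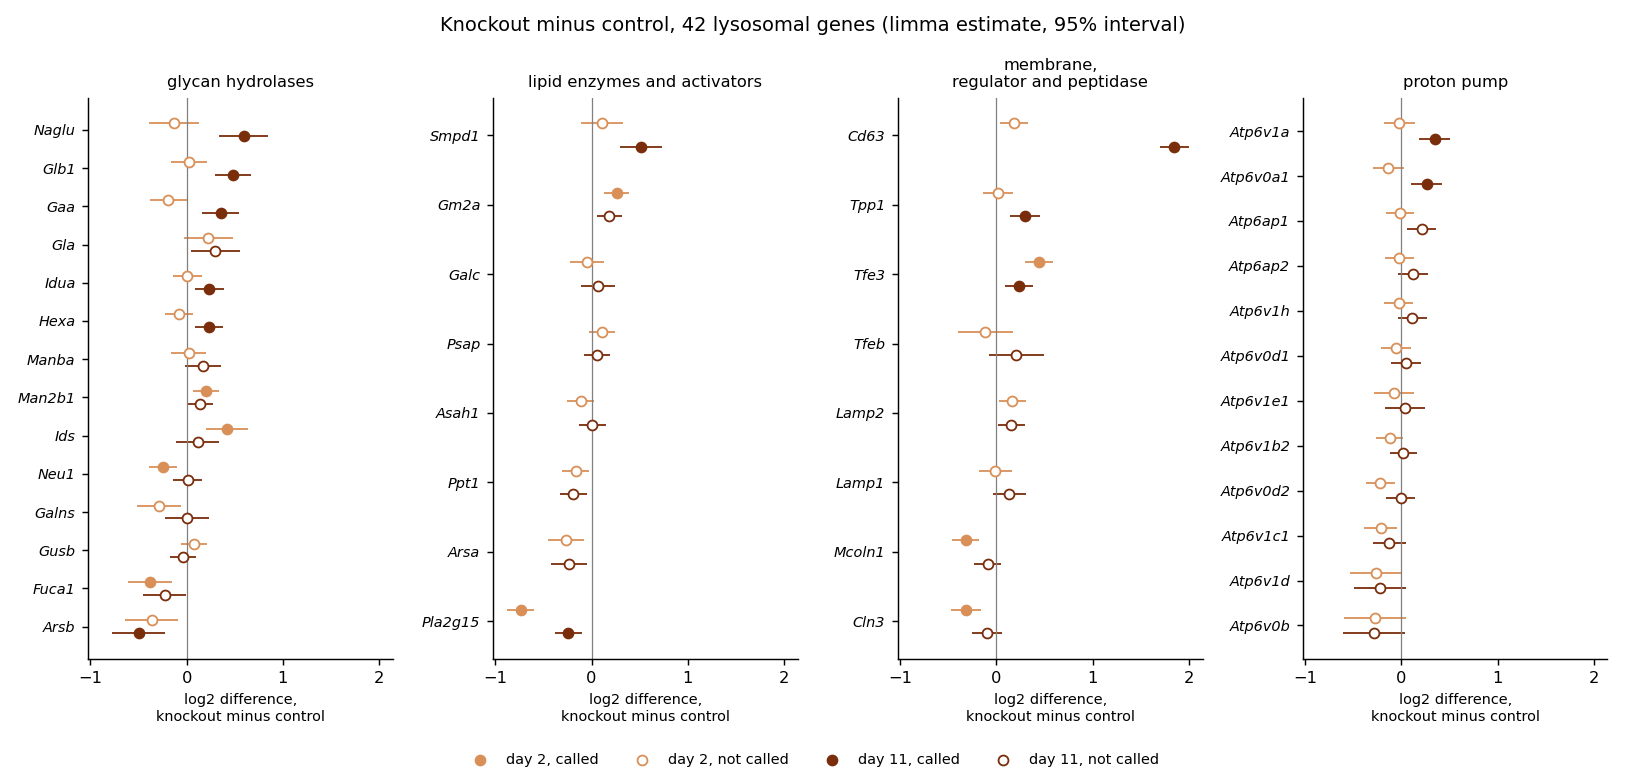
Knockout minus control log2 differences of the 42 lysosomal genes at day 2 (light) and day 11 (dark), in 4 panels by role; points are limma estimates, lines 95% intervals, and filled points are called at an adjusted p under 0.05. The proton pump panel shows no filled point at day 2 and 2 at day 11, and Cd63 at day 11 lies at 1.85.

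The proton pump showed small differences. None of the 12 members was called at day 2, beside 20.1% of all genes, although all 12 differences were below 0 (median -0.10), as were those of 10689 of the 18782 genes. By unadjusted p under 0.05, 2 of the 12 differed. Leaving out knockout day 2 replicate 2 brought calls for Atp6v0d2 and Atp6v1c1. At day 11, 2 of 12 were called higher and none lower (median 0.04), beside 9.34% and 9.29% of all genes. Atp6v1a, the catalytic subunit of the V1 sector, was 10.83 and 10.72 in day 2 controls, 10.77 and 10.74 in day 2 knockouts, 10.54 and 10.63 in day 11 controls and 10.96 and 10.90 in day 11 knockouts. Atp6v0a1, a V0 subunit that takes part in carrying protons, was 11.24 and 11.20, 11.07 and 11.10, 10.91 and 11.05, and 11.22 and 11.27 in the same order. In both genes the day 11 controls were below the day 11 knockouts. Atp6v1a was 0.35 ± 0.07 higher (adjusted p = 0.0104), lost without control replicate 1 (0.0784) or knockout replicate 1 (0.0615) of day 11. Atp6v0a1 was 0.27 ± 0.07 higher (adjusted p = 0.0323), lost without either day 2 control (0.0558), control day 11 replicate 1 (0.192), knockout day 11 replicate 1 (0.0822) or replicate 2 (0.146) and with only the day 11 arrays (0.0698).

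The V0 sector holds 1 of 2 alternative d subunits, the d1 form found in most cells and the d2 form of osteoclasts and some macrophages. Atp6v0d1 was 11.12 and 11.17 in day 2 controls, 11.05 and 11.13 in day 2 knockouts, 11.00 and 11.10 in day 11 controls and 11.10 and 11.10 in day 11 knockouts. Its genotype differences were -0.05 (95% interval -0.21 to 0.10) and 0.05 (-0.10 to 0.20), with overlapping arrays. Atp6v0d2 was 12.08 and 12.08, 11.80 and 11.92, 12.17 and 12.20, and 12.20 and 12.16 in the same order. Its day 2 knockouts were the lowest of the 8 arrays. The day 2 difference was -0.22 ± 0.07 (adjusted p = 0.0505), and it was called without knockout day 2 replicate 2 (0.0427), with dim genes left out (0.0341), with the mean over probe sets (0.0487) and with a trend and robust prior (0.00858). At day 11 the difference was 0.00 (-0.16 to 0.15). Whether the 2 forms differ in their response was not tested. The other 8 pump members, Atp6v0b, Atp6v1b2, Atp6v1c1, Atp6v1d, Atp6v1e1, Atp6v1h, Atp6ap1 and Atp6ap2, were not called in any of the 5 comparisons in the fit over all 8 arrays. Besides Atp6v1c1 at day 2, which was also called lower under the trend and robust prior, Atp6ap1 was called higher at day 11 with dim genes left out and under the trend and robust prior, and Atp6v1d lower at day 11 without knockout day 11 replicate 1. The widest intervals among them were those of Atp6v0b, -0.60 to 0.05 at day 2 and -0.61 to 0.04 at day 11. Its 2 day 2 knockout pools lay 0.36 apart.

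The comparison of ages asked how the same genes differed between day 2 and day 11 within each genotype. Age and gate cannot be told apart in it. In controls 2 members, Pla2g15 and Ids, were called higher at day 11, against 2.81% of all genes, and 1, Cd63, lower, against 2.49%, together 7.14% of the members beside 5.3% of all genes. Ids rose by 0.48 ± 0.10 (adjusted p = 0.0311), a call lost without any 1 of the 4 control arrays (0.0845 to 0.181). In knockouts 6 were called higher, against 8.81%, and 1 lower, against 6.71%, together 16.7% beside 15.5%. The 6 were Pla2g15, Gaa (0.42 ± 0.08, adjusted p = 0.0135), Cd63, Atp6v0d2 (0.32 ± 0.07, adjusted p = 0.0151), Hexa (0.28 ± 0.06, adjusted p = 0.0226) and Ppt1 (0.22 ± 0.06, adjusted p = 0.0446). The 1 that fell was Gusb, β-glucuronidase, from 10.56 and 10.55 to 10.23 and 10.26 (a fall of 0.31 ± 0.06, adjusted p = 0.0108). Gusb signals in controls went from 10.50 and 10.46 to 10.27 and 10.29, with no call (-0.20 ± 0.06, adjusted p = 0.095).

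Beyond Cd63 and Pla2g15 the calls in knockouts depended on single arrays. Those of Gaa, Hexa, Atp6v0d2 and Gusb were lost without knockout day 2 replicate 1 (0.0671, 0.104, 0.0829 and 0.0524), without knockout day 11 replicate 1 (0.0664, 0.0661, 0.0719 and 0.0532) and with only the knockout arrays (0.0558, 0.0717, 0.0697 and 0.0544). Those of Hexa and Atp6v0d2 were lost without knockout day 11 replicate 2 as well (0.11 and 0.0579). That of Ppt1 was lost in 11 of 14 alternatives, with adjusted p from 0.0713 to 0.187 without any 1 array, 0.0622 with the replicate block, 0.128 with only the knockout arrays and 0.0548 with arrays centred on the brighter genes.

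The median change over the 42 members was -0.09 in controls and 0.09 in knockouts, beside -0.01 and 0.01 over all genes. Of the 42 differences, 33 were below 0 in controls and 12 in knockouts. The change of the genotype difference with age was called for 2 members, both upward (Cd63 and Pla2g15, against 1.29% of all genes), and for none downward, against 1.99%, together 4.76% beside 3.27%. An unadjusted p under 0.05 was found in 16 of the 42 members, beside 3192 of the 18782 genes. It was above 0 in 32 of 42 members with a median of 0.14, beside 0.02 over all genes, and above 0 in 10466 of the 18782 genes. The genotype and age comparisons share arrays, so these medians are not independent of each other.

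**Figure D5:**
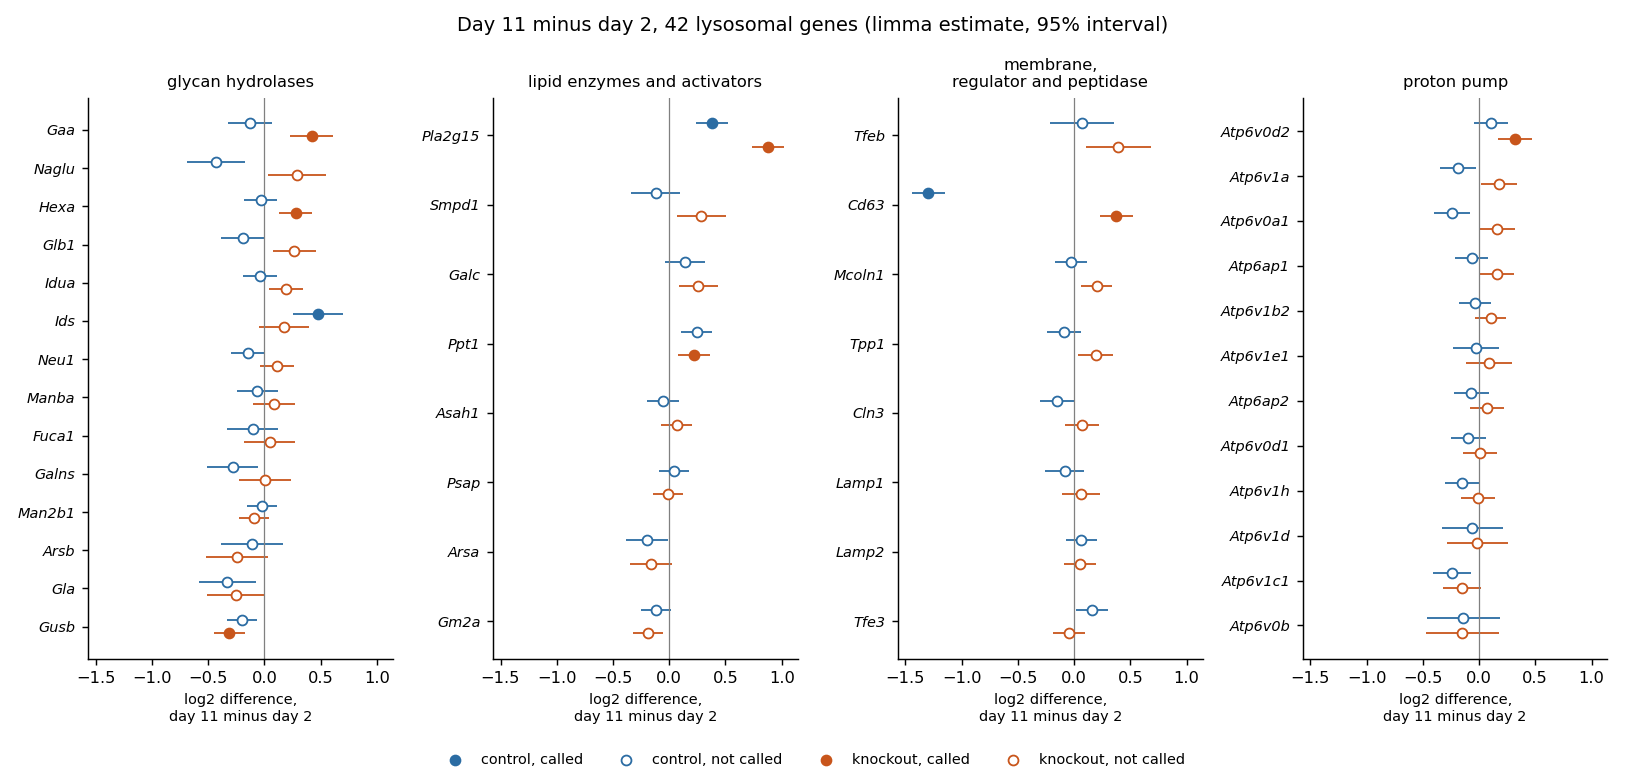
Day 11 minus day 2 log2 differences of the 42 lysosomal genes in controls (blue) and knockouts (orange), by role; points are limma estimates, lines 95% intervals, and filled points are called. Cd63 lies at -1.29 in controls and 0.38 in knockouts, and Pla2g15 lies above 0 in both.

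Other lysosomal genes, a list of 95 symbols of which 80 were measured, held differences larger than any of the members' at both ages. At day 2, 8 of the 80 were called higher and 13 lower in knockouts, with a median of -0.01. Together these were 26.2% of the list, beside 20.1% of all genes (8.86% higher and 11.2% lower). At day 11, 22 were called higher and 6 lower, with a median of 0.09, together 35.0% beside 18.6% of all genes (9.34% higher and 9.29% lower). By role at day 11, 3 of 11 glycan genes, 5 of 13 lipid genes, 9 of 29 membrane and sorting genes and 5 of 16 regulators were called higher, and none of 11 further pump genes was called either way. At day 2, 1 of the 11 pump genes was called, Atp6v1g1, which was lower (-0.39 ± 0.06, adjusted p = 0.00422), beside 20.1% of all genes. The genotype difference of Atp6v1g1 changed with age by 0.53 ± 0.09 (adjusted p = 0.0248). Atp6v0e2, Atp6v1b1, Atp6v1c2, Atp6v1e2 and Atp6v1g3 had signals below the array median of 5.35 on every array. The 13 lower calls at day 2 became 7 without either day 2 control or knockout replicate 1, and 8 with only the day 2 arrays. The 22 higher calls at day 11 became 10 without control replicate 1 and 12 without control replicate 2, and the 6 lower calls 2 without control replicate 1 and 3 without knockout replicate 1.

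The part of the marker differences given above in these calls was not tested. Plbd1, a phospholipase B-like protein of granules, was 4.38 ± 0.23 higher in day 2 knockouts (adjusted p = 1.62e-05) and 1.39 ± 0.23 higher at day 11 (0.00397). Slc11a1, the NRAMP1 metal transporter of phagosomes, was 3.11 ± 0.39 and 3.75 ± 0.39 higher (0.00105 and 0.00043). Tpcn1, an endolysosomal cation channel, was 1.62 ± 0.07 higher at day 2 (7.42e-06) and 1.20 ± 0.07 higher at day 11 (3.24e-05). Mcoln2, a relative of Mcoln1, was 1.16 ± 0.15 higher at day 2 (0.00108) and 1.39 ± 0.15 higher at day 11 (0.000448). Pcyox1, a lysosomal oxidase of prenylcysteine, fell by 0.93 ± 0.15 and 0.78 ± 0.15 (0.00396 and 0.00943), the latter lost without control day 11 replicate 1 (0.0721). Sort1, the sorting receptor sortilin, fell by 0.88 ± 0.10 and 0.53 ± 0.10 (0.000549 and 0.00699). Laptm4b, a lysosomal membrane protein, fell by 0.58 ± 0.09 at day 2 (0.00218) and 0.39 ± 0.09 at day 11 (0.0161). Cd164, a sialomucin of endosomes and lysosomes, fell by 0.37 ± 0.07 at day 2 (0.008) and 0.44 ± 0.07 at day 11 (0.00366).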

How the data were processed

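RNA of sorted lung macrophages was hybridised to Affymetrix whole-transcript arrays, 8 in 4 groups of 2. The deposited table holds log2 values for 28874 probe sets, which per the submitters' processing notes the authors obtained by RMA under R 2.15.2. RMA gives all arrays 1 distribution (largest gap at any rank 0.026), so a shift of all genes cannot be seen, and it can compress fold changes. Of the probe sets, 21159 had 1 gene symbol, 1881 several and 5834 none; the first gave 18782 genes, and the others were not used.

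Limma 3.58.1 in R 4.3.3 fitted 1 mean per group over all 8 arrays (4 residual and 3.77 prior degrees of freedom), with Benjamini-Hochberg adjustment over all genes, and was tested on simulated data. Figures used matplotlib 3.10.9. The arrays' number limits the precision. Alternatives were a replicate block, leaving out each array, leaving out genes below the median gene in every group (9889 kept), a trend and robust prior, only the arrays compared, the mean over probe sets, and centring on the brighter genes. Members shown in full are those called between genotypes (up to 6 each way), those called over age (up to 5 each way), Lamp1, Lamp2, Tfeb, Tfe3 and the d subunits; of other lysosomal genes, the 3 largest each way among those called. Called members beyond these limits, Atp6v1g1, and the second age of Tpcn1, Mcoln2, Laptm4b and Cd164 were added after their values were seen. The members and lists were chosen with earlier results of these data known.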

Additional observations from a re-analysis of the deposited data

Results flagged for a closer look

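In 2 members the genotype difference changed between day 2 and day 11 by the test of that change itself. For Cd63 the knockout minus control difference went from 0.18 to 1.85, a change of 1.67 ± 0.09 on the log2 scale (adjusted p = 0.000198). For Pla2g15 it went from -0.74 to -0.24, a change of 0.50 ± 0.09 (adjusted p = 0.0263).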

How the results depend on the processing

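Of the 34 calls among the members over the 5 comparisons, 8 held in every alternative tried: Pla2g15 and Tfe3 at day 2, Cd63 and Glb1 at day 11, Cd63 over age in controls, Cd63 and Pla2g15 over age in knockouts, and Cd63 in the change of the genotype difference with age. No called difference turned its direction. Leaving out 1 array gave 1 to 3 higher and 1 to 7 lower calls at day 2, 3 to 11 and 0 to 3 at day 11, 0 to 2 and 1 to 2 over age in controls, 2 to 7 and 0 to 2 over age in knockouts, and 1 to 3 higher calls in the change of the difference. With only the arrays compared, 2 were higher at day 2, beside 7.44% of all genes. At day 11, 7 were higher and 1 lower, beside 9.14% and 8.64%. Over age, 3 were lower in controls, beside 3.91%, and 2 higher and 0 lower in knockouts, beside 4.12% and 3.69%. With a trend and robust prior, 9 were lower at day 2, beside 11.4% of all genes, and 3 lower over age in controls, beside 3.01%. That prior gave 2 lower over age in knockouts, beside 6.87%, and 7 higher in the change of the difference, beside 1.43%. With dim genes left out, 2 were lower over age in knockouts, beside 12.4% of the genes kept. In the change of the difference 4 were higher, beside 2.56%. The causes were not tested, except that leaving out an array leaves fewer samples and leaving out dim genes fewer tests.

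Uncalled differences near 0 changed sign when 1 array was left out. The difference of Lamp1 ranged from -0.035 to 0.015 at day 2 (0.005 and 0.015 being the values above 0) and from -0.175 to 0.005 over age in controls. That of Tfeb ranged from -0.276 to 0.043 at day 2 and from -0.065 to 0.207 over age in controls, and that of Atp6v0d2 at day 11 from -0.025 to 0.015 (0.01 being the other value above 0). Atp6v0d1 over age in knockouts ranged from -0.03 to 0.05, and was -0.0035 with centring on the brighter genes. The change of the Lamp2 difference with age ranged from -0.04 to 0.02.

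Whether the replicate numbers pair the arrays was not settled by the data, with only 2 arrays per group. Deviations of same-numbered arrays correlated with r = 0.25 between the day 2 groups and 0.238 between the knockout groups. Between the other groups r was from -0.075 to 0.015. With the replicate block, 3 members were called higher and 5 lower at day 2, beside 8.84% and 10.8% of all genes. At day 11 the counts were 8 and 2, beside 9.22% and 8.96%. Over age they were 2 and 1 in controls, beside 2.88% and 2.31%, and 5 and 1 in knockouts, beside 8.62% and 6.41%. In the change of the difference they were 2 and 0, beside 1.05% and 1.92%.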
